A study of Mus musculus with 18 samples.

Results

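The genes described here are 9 genes used to follow primordial germ cells: Prdm1, Prdm14, Tfap2c, Dppa3, Nanos3, Ifitm1, Ifitm3, Kit and Kitl. They are 9 of the 24498 genes of the processed table and were listed by name. RNA was measured in cells sorted from mouse embryos at embryonic day 7.5. All embryos were homozygous for an allele that fuses tagRFP, a red fluorescent protein, to FoxA2, a forkhead transcription factor of the endoderm, node and notochord. ΔHx embryos lacked an α-helix of 10 amino acids in the fused FoxA2; in WT embryos the fusion was whole. Sorting by red fluorescence gave a High gate, above the signal of heterozygous cells, a Mid gate, from autofluorescence up to the heterozygous maximum, and a Neg gate without signal. The 6 groups were ΔHx High, ΔHx Mid, ΔHx Neg, WT High, WT Mid and WT Neg, with 3 biological replicates in each, and 18 libraries in all. The mice had a mixed C57Bl6/J and CD-1 background, each sort pooled about 10 embryos of unknown sex, and their extra-embryonic tissue had been cut away to genotype them. Neither gate nor genotype selected germ cells, so each level is an average over all cells of a gate. In such pooled cells, fewer expressing cells and less RNA per cell cannot be told apart.

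Primordial germ cells are the embryonic precursors of sperm and eggs. In the mouse they are set aside from the proximal epiblast during gastrulation, under BMP signals from neighbouring extra-embryonic tissue, and they first gather at the base of the allantois. The transcriptional regulators Prdm1, Prdm14 and Tfap2c start the germ cell programme, and Dppa3, Nanos3 and the membrane proteins Ifitm1 and Ifitm3 mark the cells as they form. The receptor tyrosine kinase Kit and its ligand Kitl then serve their survival and migration. Most of these genes are also used elsewhere at this stage: Prdm1 in visceral and anterior endoderm, Tfap2c in trophoblast and surface ectoderm, and Kit and Kitl in several lineages.

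The depth was 12302196 to 17194136 gene reads per library, which detected 15649 to 17917 genes. Values are read counts divided by the size factor of the library, in which 1 read was worth 0.825 to 1.37. Foxa2 values ranged over 1848 to 2385 (ΔHx High), 1556 to 2483 (WT High), 547 to 1229 (ΔHx Mid), 621 to 871 (WT Mid), 43.4 to 62.5 (ΔHx Neg) and 20.3 to 40.6 (WT Neg). A value per gene does not check the deletion, since the rest of Foxa2 is kept. Node and notochord markers (10 genes, summed) reached 18841 to 28515 in the High libraries, against at most 3766 elsewhere. Visceral endoderm markers (13 genes, summed) reached 71324 to 94037 in the Mid libraries, against 7617 to 21724 in High and 5475 to 8614 in Neg. One library stood apart within its group: WT Mid replicate 1 had a summed level of 9 parietal endoderm markers of 251400, against 41518 and 65454 in the other WT Mid libraries and at most 23795 in the rest.

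The regulators and markers were read in very unequal amounts. Ifitm1 gave 46556 reads over the 18 libraries, Kitl 23876, Kit 13492, Prdm1 2972, Ifitm3 2052 and Tfap2c 1235. Dppa3 gave 129 reads, Prdm14 gave 64 and Nanos3 gave 42. Prdm14 had a read in 8 of the 18 libraries and Nanos3 in 11. A filter that asked for 10 or more in 3 or more libraries was passed by 7 of the 9, namely Prdm1, Tfap2c, Dppa3, Ifitm1, Ifitm3, Kit and Kitl, and not by Prdm14 and Nanos3. Dppa3 passed with exactly 3 libraries. Per kilobase of exon, group means of the level were 1849 to 2599 for Ifitm1, 82.0 to 350 for Kitl, 82.0 to 336 for Ifitm3, 50.3 to 108 for Kit, 19.6 to 37.2 for Prdm1, 2.27 to 49.99 for Tfap2c and 4.92 to 11.6 for Dppa3. The same scale gave at most 5.72 for Prdm14 and at most 4.04 for Nanos3.

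**Figure D1:**
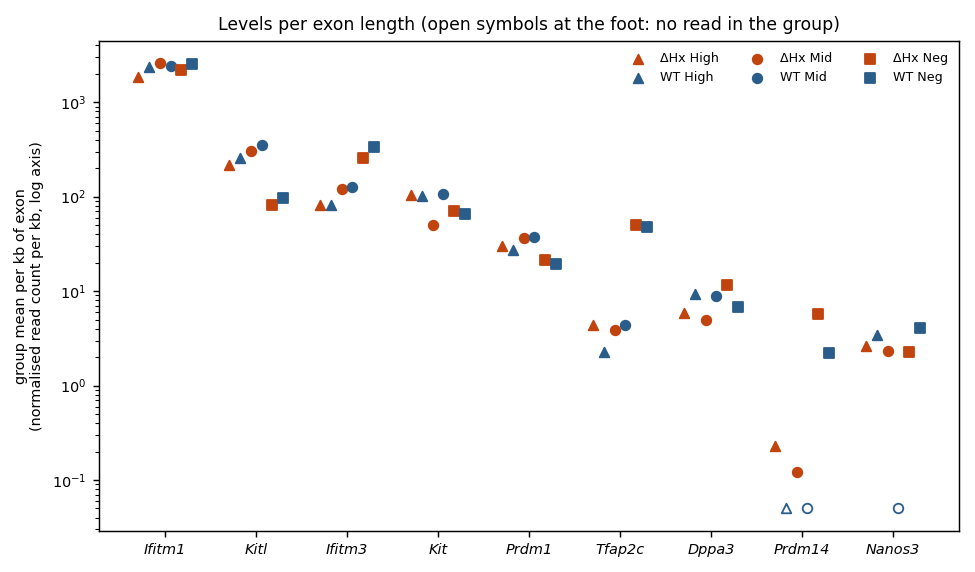
Level of each germ cell gene per kilobase of exon (log axis) in the 6 groups. Points are group means over 3 libraries, and open symbols at the foot mark groups without a read. Ifitm1 lay at 1849 to 2599 in every group, and Nanos3 at 0 to 4.04.

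Promoter sequences, 250 bases before to 50 bases after the start that the table gives, were found in the RefSeq table (GRCm38.p6) for Prdm1, Nanos3, Ifitm1, Ifitm3, Kit and Kitl; Prdm14, Tfap2c and Dppa3 are named only. Both strands were searched for the forkhead motifs TGTTTAC and TGTTTGC, the interferon response motif (GAAA, any 2 bases, GAAA), the AP-2 motif GCCNNNGGC and the SMAD motifs GTCTAGAC and GGCGCC. These starts lie inside the GENCODE gene spans given with each gene, deepest for Prdm1, so a window need not be at the gene's outermost start. Shown are Prdm1, which held both forkhead motifs, the nearby genes Ifitm1 and Ifitm3, whose levels differed between gates in unlike ways, and Kitl, the member raised most in the FoxA2-positive gates. The sequences are printed on the gene's strand, with every motif match in capitals.
Prdm1 (chr10:44458699-44458998, minus strand): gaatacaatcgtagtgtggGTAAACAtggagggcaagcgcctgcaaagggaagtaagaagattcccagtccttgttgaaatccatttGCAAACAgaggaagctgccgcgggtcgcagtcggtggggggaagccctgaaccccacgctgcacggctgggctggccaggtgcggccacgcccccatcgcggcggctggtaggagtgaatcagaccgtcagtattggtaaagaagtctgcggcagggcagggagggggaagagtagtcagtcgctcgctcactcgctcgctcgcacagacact
Ifitm1 (chr7:140967826-140968125, plus strand): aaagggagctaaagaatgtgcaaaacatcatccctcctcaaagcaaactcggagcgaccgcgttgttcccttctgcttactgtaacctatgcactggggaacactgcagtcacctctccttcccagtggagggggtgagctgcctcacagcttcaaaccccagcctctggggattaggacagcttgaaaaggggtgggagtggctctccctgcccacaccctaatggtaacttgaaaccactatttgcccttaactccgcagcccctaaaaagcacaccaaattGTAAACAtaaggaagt
Ifitm3 (chr7:141010695-141010994, minus strand): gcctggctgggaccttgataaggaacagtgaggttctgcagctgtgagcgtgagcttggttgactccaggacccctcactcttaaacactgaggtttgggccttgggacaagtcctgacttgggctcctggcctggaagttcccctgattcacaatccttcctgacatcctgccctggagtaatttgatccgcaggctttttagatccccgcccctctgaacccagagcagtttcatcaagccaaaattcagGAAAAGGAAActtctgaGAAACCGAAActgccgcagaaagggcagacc
Kitl (chr10:100015571-100015870, plus strand): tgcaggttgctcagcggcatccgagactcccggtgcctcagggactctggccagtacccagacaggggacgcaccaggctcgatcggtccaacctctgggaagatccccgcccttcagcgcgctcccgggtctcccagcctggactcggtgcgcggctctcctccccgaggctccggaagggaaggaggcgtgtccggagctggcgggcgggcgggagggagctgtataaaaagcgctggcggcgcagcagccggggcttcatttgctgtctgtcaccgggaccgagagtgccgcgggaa
In Prdm1 the capitals are the reverse complements of TGTTTAC, first base at -231 from the start, and of TGTTTGC, first base at -163. In Ifitm1 they are the reverse complement of TGTTTAC, first base at 35 after the start. In Ifitm3 they are 2 copies of the interferon response motif, first bases at 3 and 20 after the start. No motif searched was in the Kitl window. Of 32544 promoters of this length, 3.66% held TGTTTAC, 5.08% TGTTTGC, 3.45% the interferon response motif, 16.7% GCCNNNGGC, 0.215% GTCTAGAC and 11.9% GGCGCC. GCCNNNGGC was in the Nanos3 and Kit promoters. These are matches of letters in 300 bases and not measured binding.

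Prdm1 (mm10, chromosome 10, 44437177 to 44528501, minus strand, protein coding) encodes a zinc finger repressor that starts germ cell specification. It was read in every library, with the highest group means in Mid. Its values were 88.6, 182 and 233 in ΔHx High and 101, 220 and 137 in WT High. They were 251, 180 and 181 in ΔHx Mid and 145, 287 and 191 in WT Mid, against 107, 104 and 146 in ΔHx Neg and 97.3, 119 and 111 in WT Neg. All Mid libraries lay above the Neg libraries of their genotype, while High libraries overlapped with both. The log2 change of Mid over Neg was 0.78 in ΔHx (SE 0.33, adjusted p = 0.0768) and 0.87 in WT (SE 0.33, adjusted p = 0.0504), limma with Benjamini-Hochberg adjustment over 14711 genes, so neither passed the threshold of 0.05. The WT change passed with other tools: with edgeR it was 0.93 (adjusted p = 0.0388) and with DESeq2 0.93 (adjusted p = 0.0217). It also passed without WT Mid replicate 1 (adjusted p = 0.0280), but was 0.61 without WT Mid replicate 2 (adjusted p = 0.224) and 0.64 with quantile normalisation (adjusted p = 0.168). The summed visceral endoderm markers were also highest in Mid. Their part in the Prdm1 level was not tested.

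Tfap2c (mm10, chromosome 2, 172549593 to 172558622, plus strand, protein coding) encodes an AP-2 transcription factor that acts with Prdm1 and Prdm14. It fell in both FoxA2-positive gates relative to Neg. It had values of 14.0, 13.6 and 20.6 in ΔHx High and 2.40, 17.3 and 5.32 in WT High, and of 11.2, 28.3 and 3.42 in ΔHx Mid and 8.22, 14.3 and 26.2 in WT Mid. In Neg the values were 156, 184 and 212 in ΔHx and 163, 186 and 181 in WT. The highest value in the FoxA2-positive gates, 28.3, lay far below the lowest Neg value, 156. The log2 change of High over Neg was -3.45 in ΔHx (SE 0.61, adjusted p = 0.000145) and -4.60 in WT (SE 0.61, adjusted p = 5.67e-06). For Mid over Neg it was -3.98 in ΔHx (SE 0.61, adjusted p = 6.72e-05) and -3.50 in WT (SE 0.61, adjusted p = 0.000231). Between High and Mid the change was 0.53 in ΔHx (adjusted p = 0.564) and -1.10 in WT (adjusted p = 0.216). With 1 library left out, the WT change was -1.76 (adjusted p = 0.0466, without WT High replicate 2) to -0.54 (adjusted p = 0.625, without WT High replicate 1).

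Prdm14 (mm10, chromosome 1, 13113457 to 13127163, minus strand, protein coding), a further PR-domain regulator that is needed for germ cell pluripotency genes and epigenetic resetting, was seen almost only in Neg. Its reads numbered 1, 1 and 0 in ΔHx High, 1, 0 and 0 in ΔHx Mid and 16, 28 and 0 in ΔHx Neg, and 0 in every WT High and WT Mid library, against 2, 8 and 7 in WT Neg. One ΔHx Neg library had no read while the others held the highest Prdm14 values, 17.9 and 26.1. The mean level was 0.297 in High, against 10.2 in Neg, and 0.155 in Mid, against 10.2 in Neg. A two-sided exact permutation test of libraries within genotype gave p = 0.02 for each comparison, unadjusted over 8 such comparisons and with 0.005 as the smallest p possible. Left out one at a time, each ΔHx High or ΔHx Mid library raised that p to 0.095. Summed over libraries, ΔHx High had 2 reads, against 44 in ΔHx Neg, and the depth-corrected ratio of Neg over High was 25.9 (exact 95% interval 6.76 to 221). ΔHx Mid had 1 read, against the same 44, and the ratio of Neg over Mid was 44.6 (exact 95% interval 7.60 to 1802). WT High was at least 1.88-fold lower and WT Mid at least 1.76-fold lower than WT Neg, with its 17 reads, when groups without a read were set to a floor of 3 reads in each library. Intervals and floors cover counting error only. Fitted by limma without the filter, Prdm14 was lower in all 4 comparisons of High or Mid with Neg (adjusted p = 0.0215 to 0.0372).

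Dppa3 (mm10, chromosome 6, 122626410 to 122630272, plus strand, protein coding), also called Stella, protects methylation of the maternal genome. Nanos3 (chromosome 8, 84173731 to 84185217, minus strand, protein coding) encodes an RNA-binding protein needed for germ cell survival. Both are used as markers of early germ cells, and both gave few reads. Dppa3 reached 7.02, 5.43 and 3.30 in ΔHx High and 9.59, 11.8 and 3.55 in WT High. It reached 3.72, 4.88 and 4.56 in ΔHx Mid and 4.11, 17.2 and 2.62 in WT Mid. The Neg values of Dppa3 were 8.93, 14.9 and 7.23 in ΔHx and 3.70, 7.10 and 7.25 in WT. Dppa3 groups overlapped broadly, apart from ΔHx High and ΔHx Mid, both below ΔHx Neg; neither was called. Of its 817 possible 75-base exon windows, 31 also occur in a pseudogene, Dppa3-ps, so reads from these windows could not be placed. Nanos3 reads numbered 2, 6 and 0 in ΔHx High, 2, 0 and 4 in ΔHx Mid and 2, 0 and 4 in ΔHx Neg, and 2, 5 and 3 in WT High, 0 in all 3 WT Mid libraries and 1, 0 and 11 in WT Neg. No comparison of its High, Mid and Neg levels passed: the exact permutation p was 0.98 for High over Neg, 0.42 for Mid over Neg and 0.2 for High over Mid. The last was 0.045 to 0.445 with 1 library left out, lowest without ΔHx Mid replicate 3, and is unadjusted. For Nanos3 in WT Mid, with 0 reads, the floor of 3 reads in each library used for Prdm14 equals a level of 3.20. That floor is a setting and not a measured limit.

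**Figure D2:**
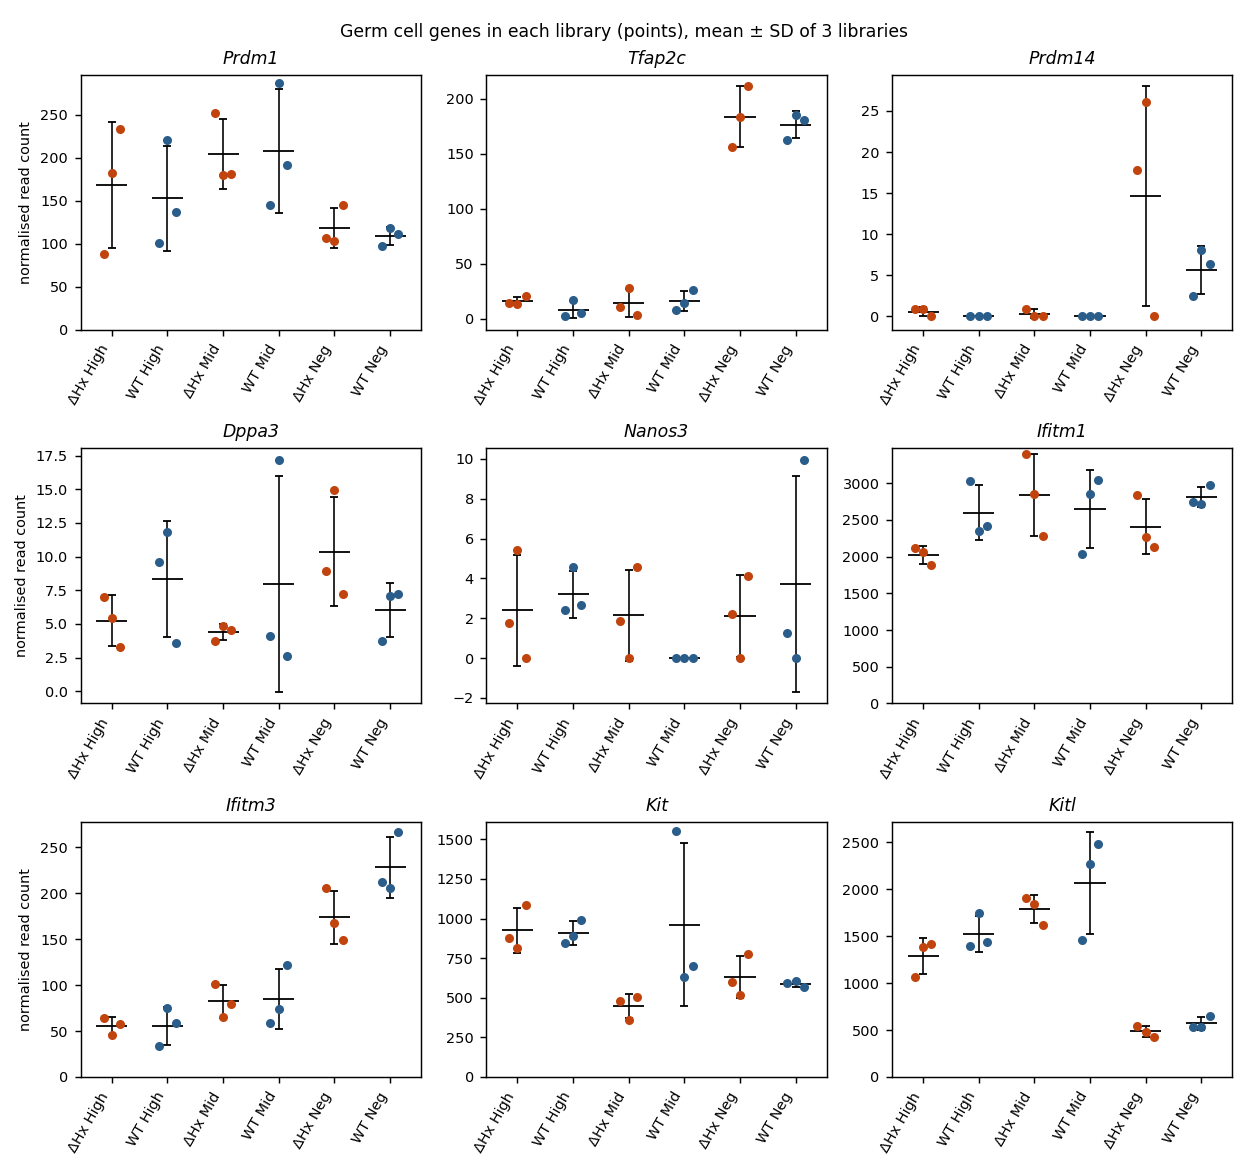
Values of the 9 germ cell genes in each of the 18 libraries (linear axes, 1 panel per gene); points are libraries, bars are group means with SD, n = 3 per group. Tfap2c, Prdm14 and Ifitm3 are highest in Neg, Kitl is highest in Mid, and Ifitm1 differs little between groups.

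Ifitm1 and Ifitm3 are interferon-induced transmembrane proteins of the germ cell surface that lie near each other on chromosome 7, in mm10 and both protein coding (Ifitm1 140967221 to 140969825, plus strand; Ifitm3 141009586 to 141010770, minus strand; 39760 bases apart). Ifitm1 was high in all gates and differed little, while Ifitm3 was highest in Neg. Ifitm1 had values of 2111, 2069 and 1888 in ΔHx High and 3026, 2346 and 2415 in WT High. The Mid values of Ifitm1 were 3398, 2852 and 2281 in ΔHx and 2037, 2855 and 3038 in WT, and its Neg values were 2837, 2264 and 2127 in ΔHx and 2748, 2710 and 2969 in WT. All ΔHx High libraries were below all ΔHx Mid and all ΔHx Neg libraries. Only ΔHx High against ΔHx Mid passed, at a log2 change of -0.47 (SE 0.15, adjusted p = 0.0280); it was lost on leaving out ΔHx High replicate 2 or 3 or ΔHx Mid replicate 1 or 2, at adjusted p of up to 0.141. Ifitm3 had values of 64.0, 45.3 and 57.7 in ΔHx High and 33.6, 74.6 and 58.5 in WT High, and of 101, 65.3 and 79.8 in ΔHx Mid and 58.9, 73.5 and 122 in WT Mid. In Neg its values were 205, 168 and 149 in ΔHx and 212, 206 and 266 in WT, above every other library. The log2 change of High over Neg was -1.63 in ΔHx (SE 0.31, adjusted p = 0.000278) and -2.08 in WT (SE 0.31, adjusted p = 2.02e-05), and that of Mid over Neg was -1.08 in ΔHx (SE 0.31, adjusted p = 0.0106) and -1.47 in WT (SE 0.31, adjusted p = 0.00116). The ΔHx Mid call was lost without ΔHx Mid replicate 2 (adjusted p = 0.0502) or ΔHx Neg replicate 1 (adjusted p = 0.0524). Shared 75-base exon windows were few, 6 of 1031 in Ifitm1 and 4 of 604 in Ifitm3.

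Kitl (mm10, chromosome 10, 100015630 to 100100416, plus strand, protein coding), the ligand of Kit, was the member raised most in the gates with FoxA2. The High libraries gave 1066, 1382 and 1411 in ΔHx and 1389, 1740 and 1441 in WT. The Mid libraries gave 1903, 1845 and 1614 in ΔHx and 1454, 2268 and 2479 in WT, and the Neg libraries 545, 481 and 427 in ΔHx and 531, 536 and 649 in WT. High and Mid libraries lay above all Neg libraries. The log2 change of High over Neg was 1.40 in ΔHx (SE 0.17, adjusted p = 1.65e-06) and 1.41 in WT (SE 0.17, adjusted p = 1.36e-06); that of Mid over Neg was 1.88 in ΔHx (SE 0.17, adjusted p = 9.75e-08) and 1.82 in WT (SE 0.17, adjusted p = 1.22e-07). High was below Mid in ΔHx, at -0.48 (SE 0.17, adjusted p = 0.0399), but that call was lost without ΔHx High replicate 1, ΔHx Mid replicate 1 or ΔHx Mid replicate 2, at adjusted p of up to 0.182, without the filter (adjusted p = 0.0603) and with equal totals (adjusted p = 0.0557). In WT the same difference of -0.41 (SE 0.17, adjusted p = 0.0830) did not pass, but it was -0.64 without WT Mid replicate 1 (adjusted p = 0.00316).

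Kit (mm10, chromosome 5, 75574916 to 75656722, plus strand, protein coding), the receptor, was less ordered by gate and showed the widest spread in WT Mid. Kit was 876, 813 and 1087 in ΔHx High and 846, 889 and 994 in WT High. It was 479, 360 and 506 in ΔHx Mid, against 1552, 630 and 701 in WT Mid. In Neg it was 602, 516 and 773 in ΔHx and 591, 607 and 569 in WT. All High libraries lay above all Neg libraries, and all ΔHx Mid libraries lay below all other libraries. High exceeded Neg in WT at a log2 change of 0.62 (SE 0.24, adjusted p = 0.0409) and, short of the threshold, in ΔHx at 0.56 (SE 0.24, adjusted p = 0.0660, or 0.0396 without ΔHx Neg replicate 3). The WT call was lost on leaving out any 1 of its 6 libraries (adjusted p = 0.0596 to 0.105) and without the filter (adjusted p = 0.0613). High exceeded Mid in ΔHx at 1.05 (SE 0.24, adjusted p = 0.00302). In WT the same comparison gave 0.04 (SE 0.24, adjusted p = 0.930 by limma). Mid over Neg gave -0.49 in ΔHx (SE 0.24, adjusted p = 0.125) and 0.58 in WT (SE 0.24, adjusted p = 0.0694); the WT change passed with edgeR (adjusted p = 0.0355), with DESeq2 (adjusted p = 0.0192) and without WT Mid replicate 2 or 3. Without WT Mid replicate 1, the highest Kit library, it was 0.17 (adjusted p = 0.495).

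**Figure D3:**
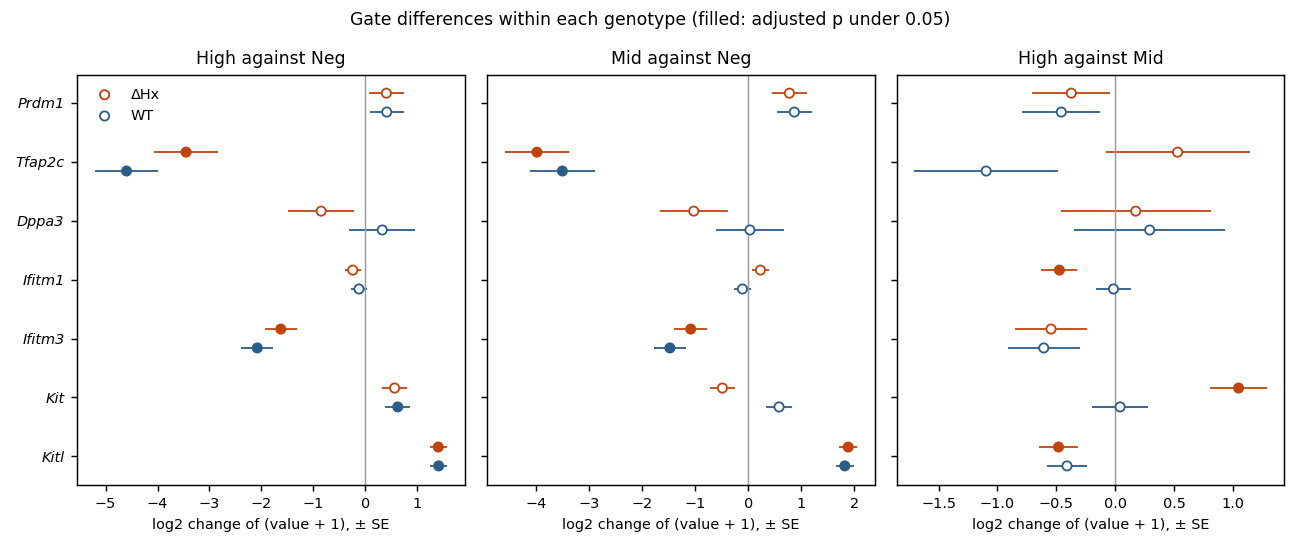
Log2 change of the 7 tested genes between gates within each genotype, with SE (6 comparisons, n = 3 per group); filled points passed an adjusted p under 0.05. Tfap2c and Ifitm3 lie below 0 and Kitl above 0 in every comparison of High or Mid with Neg.

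Counted over the 7 tested members, 3 changed in ΔHx High over ΔHx Neg, 1 higher and 2 lower, where 42.6% of all tested genes changed (21.5% higher, 21.1% lower). In WT High over WT Neg 4 changed, 2 in each direction, against 44.4% of all tested genes (22.6% higher, 21.8% lower). Mid over Neg changed 3 members in each genotype, 1 higher and 2 lower, against 34.3% of all tested genes in ΔHx (17.9% higher, 16.5% lower) and 32.9% in WT (17.4% higher, 15.4% lower). High over Mid changed 3 in ΔHx, 1 higher and 2 lower, against 25.6% of all tested genes (13.3% higher, 12.3% lower), and 0 in WT, against 24.4%. For that last count of 0, limma without adjustment put 1 member, Kitl, under 0.05 (34.9% of all tested genes), edgeR called 0 and DESeq2 called 1. Libraries of the compared gates did not overlap for 6, 6 and 4 members in ΔHx High over Neg, Mid over Neg and High over Mid (54.7%, 50.6% and 39.1% of all tested genes). In WT they did not overlap for 4, 5 and 0 members in the same order (54.7%, 44.6% and 35.4%). Read against these backgrounds, counts of 3 or 4 out of 7 are no result about the germ cell genes as a set, since about that share of all genes differed between gates.

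The effect of the α-helix deletion was then set against the WT value within each gate. No member passed: 0 of 7 were called in High (0.122% of all tested genes were), 0 in Mid (0.401%), 0 in Neg (0.245%) and 0 averaged over the 3 gates (0.843%). Without adjustment, limma put under 0.05 Ifitm1 in High (7.86% of all tested genes were), Kit in Mid (7.96%), no member in Neg (4.17%) and Kit and Kitl in the average (9.58%). edgeR called 0 in each comparison, and DESeq2 called 0 in High, Neg and the average and 1 in Mid. All differences of genotype effects between gates also gave 0 of 7 calls (0, 0.00680% and 0.0136% of all tested genes); without adjustment 0, 1 and 2 members were under 0.05 (3.15%, 4.32% and 6.13% of all tested genes), and edgeR and DESeq2 called 0 each time. At n = 3 per group, these tests cannot show that levels were alike.

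The genotype difference with the smallest p among members was that of Kit in Mid. Kit averaged 448 ± 77.9 in ΔHx Mid and 961 ± 513 in WT Mid (SD, n = 3 each), a log2 change of -0.99 (SE 0.24, unadjusted p = 0.000559, adjusted p = 0.0895 by limma). The libraries of the groups did not overlap, as for 10.9% of all tested genes. The call depended on tool and library: DESeq2 gave -1.10 (adjusted p = 0.00321), edgeR -1.09 (adjusted p = 0.0535), the compared groups alone an adjusted p of 0.679, and leaving out WT Mid replicate 2 gave -1.23 (adjusted p = 0.0163). Without WT Mid replicate 1 the change was -0.58 (adjusted p = 0.283). The test of the difference itself, Mid effect minus Neg effect, gave -1.07 (SE 0.34, unadjusted p = 0.00522, adjusted p = 0.691), and that of High minus Mid gave 1.01 (SE 0.34, adjusted p = 0.601).

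Markers of parietal endoderm, an extra-embryonic lineage, moved with Kit in Mid. Their sum was 17315, 17008 and 23795 in ΔHx Mid, against 251400, 41518 and 65454 in WT Mid. Of the 9 markers, 8 were called lower in ΔHx Mid, where 0.401% of all tested genes were called in either direction. In both groups the library with the highest sum had the highest Kit, and that with the lowest sum the lowest Kit. Kitl did not follow this order. In both groups the library of highest sum had the lowest Kitl, 1614 in ΔHx Mid and 1454 in WT Mid. The library of lowest sum had the middle Kitl value, 1845 in ΔHx Mid and 2268 in WT Mid. Elsewhere the marker sum was 8121 to 15562. The High libraries, with sums of 10899 to 15562, had Kit at 813 to 1087, above all ΔHx Mid libraries. The Neg libraries, with sums of 8121 to 8729, had Kit at 516 to 773. The part of parietal endoderm in the Kit level was not tested.

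**Figure D4:**
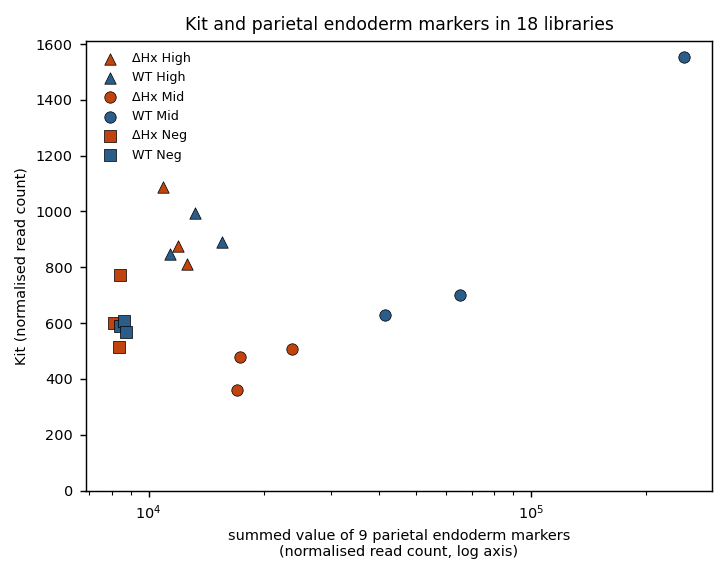
Kit value against the summed value of 9 parietal endoderm markers (log axis) in each of the 18 libraries, with genotype shown by colour and gate by symbol shape. The 3 ΔHx Mid libraries hold Kit at 360 to 506 and marker sums of 17008 to 23795, and the WT Mid libraries hold Kit at 630 to 1552 and sums of 41518 to 251400.

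The other genotype differences did not pass either. Ifitm1 averaged 2023 ± 118 in ΔHx High and 2596 ± 374 in WT High (SD, n = 3 each), a log2 change of -0.35 (SE 0.15, adjusted p = 0.587 by limma) with no overlap of libraries, as for 10.9% of genes. Ifitm3 averaged 174 ± 28.8 in ΔHx Neg and 228 ± 33.3 in WT Neg (SD, n = 3 each), a log2 change of -0.39 (SE 0.31, adjusted p = 1) with no overlap, as for 12.7% of genes. Tfap2c averaged 16.1 ± 3.94 in ΔHx High and 8.34 ± 7.89 in WT High (SD, n = 3 each), a log2 change of 1.20 (SE 0.61, adjusted p = 0.651), with overlapping libraries. Prdm14 averaged 5.19 in ΔHx and 1.88 in WT over the 3 gates, a difference of 3.31 with p = 0.3 in the exact permutation test. It was 5.75 (exact p = 0.01) without ΔHx Neg replicate 3, the library without a read, and 1.40 (exact p = 0.65) without ΔHx Neg replicate 2. Embryo sex was not balanced by design: of 5 sex-linked genes listed, all 4 Y-linked ones were called higher in ΔHx in the average over gates. Of all tested genes, 0.843% were called in that average, in either direction. Xist, which marks female cells and was not called, averaged 1600 in ΔHx High and 3613 in WT High, 2758 in ΔHx Mid and 4861 in WT Mid, and 1414 in ΔHx Neg and 2433 in WT Neg. The part of embryo sex in any genotype difference was not tested.

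**Figure D5:**
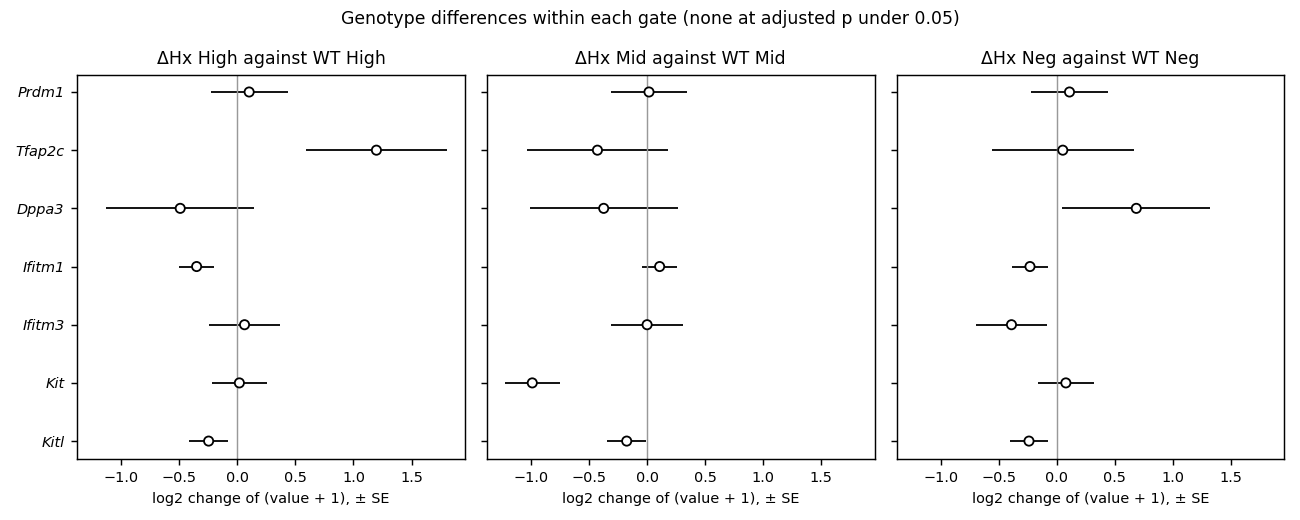
Log2 change of the 7 tested genes, ΔHx over WT, with SE, in High, Mid and Neg (n = 3 per group). No point passed an adjusted p under 0.05; Kit in Mid lies farthest below 0 relative to its SE.

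Marker sums of 3 other lineages were also highest in Neg, as Tfap2c, Prdm14 and Ifitm3 were. Extra-embryonic and lateral mesoderm markers (11 genes) summed to at most 1115 in High and Mid, against 4033 to 5393 in Neg. Epiblast and ectoderm markers (9 genes) summed to 7963 to 14132 in High and Mid, against 21039 to 26397 in Neg. Of these 9, 2 rose and 7 fell in High over Neg in each genotype, against 42.6% of all tested genes changed in ΔHx and 44.4% in WT. Dnmt3b, one of the 9, alone averaged 4270 in WT High and 15021 in WT Neg. Blood and endothelium markers (12 genes) summed to at most 663 in High and Mid, against 1772 to 3470 in Neg. The 12 trophoblast and extra-embryonic ectoderm markers ran the other way, with sums of 40142 to 47080 in High, 14220 to 21271 in Mid and 6312 to 7731 in Neg. Most of this was Krt8 and Krt18, keratins of many epithelia. Of 11 tested, 2 rose and 7 fell in WT High over WT Neg, against 44.4% of all tested genes changed. In ΔHx High over ΔHx Neg, 3 rose and 5 fell, against 42.6%. Between genotypes in Neg, 1 of the 11 was called, lower in ΔHx, against 0.245% of all tested genes. Cdx2 and Elf5, transcription factors of this list, averaged 456 ± 78.1 and 34.0 ± 17.3 in ΔHx Neg and 498 ± 89.0 and 64.2 ± 19.8 in WT Neg (SD, n = 3 each). Tpbpa, a marker of the placental cone, averaged at most 0.760 in any group. Prl3d1, a giant cell hormone, averaged 1.12 ± 1.93 in ΔHx Neg and 31.3 ± 19.5 in WT Neg (SD, n = 3 each). The part of these lineages in the levels of Tfap2c, Prdm14 and Ifitm3 was not tested.

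Of 100 genes in 6 lists tied to germ cells, 87 were tested. In ΔHx High over ΔHx Neg 13 rose and 31 fell, 50.6% of the 87, against 42.6% of all tested genes. In ΔHx Mid over ΔHx Neg 13 rose and 23 fell, 41.4% against 34.3%. In WT High over WT Neg 14 rose and 35 fell, 56.3% against 44.4%, and in WT Mid over WT Neg 14 rose and 20 fell, 39.1% against 32.9%. In the genotype comparisons 0 of 87 were called in High, in Mid, in Neg and in the average; unadjusted counts were 6, 8, 4 and 6, edgeR called 0, 1, 0 and 0, and DESeq2 called 0, 2, 0 and 1.

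By list, WT High and WT Mid were set against WT Neg, where 44.4% (22.6% higher, 21.8% lower) and 32.9% (17.4% higher, 15.4% lower) of all tested genes changed. Of 15 genes of germ cell induction by BMP, 2 rose and 6 fell in High. The mesoderm regulator T averaged 12424 ± 3044 in WT High and 2124 ± 851 in WT Neg, the ligand Bmp8b 9.77 ± 6.31 in WT High and 51.0 ± 20.7 in WT Neg, and the BMP target Id2 427 ± 146 in WT High and 1617 ± 298 in WT Neg (SD, n = 3 each). In Mid, 4 of the 15 rose and 3 fell, with the ligand Bmp4 at 63.7 ± 31.7 in WT Mid and 517 ± 26.4 in WT Neg, and the receptor Acvr1 at 110 ± 8.48 in WT Mid and 51.1 ± 29.7 in WT Neg. Of 16 other germ line genes, 4 rose and 4 fell in High: the chemokine Cxcl12 (59.6 ± 28.1 in WT High, 940 ± 51.6 in WT Neg) and the phosphatase Alpl (63.3 ± 10.3 in WT High, 886 ± 17.8 in WT Neg) fell, and the Tudor-domain gene Tdrd5 (456 ± 61.5 in WT High, 77.4 ± 42.5 in WT Neg) rose. In Mid, 4 rose and 3 fell, with Cxcl12 at 120 ± 40.4, Alpl at 224 ± 68.2 and the epithelial factor Elf3 at 469 ± 111 in WT Mid, against 117 ± 9.87 for Elf3 in WT Neg.

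Of 13 pluripotency genes kept in germ cells, 1 rose and 8 fell in High, with a median log2 change of -1.49, against 0.02 over all tested genes. Sox2, a core pluripotency factor, averaged 7.22 ± 4.86 in WT High and 94.9 ± 8.73 in WT Neg, and Fgf4, an epiblast growth factor, 24.0 ± 18.8 in WT High and 262 ± 83.8 in WT Neg (SD, n = 3 each). Dppa4, a chromatin-associated pluripotency gene, averaged 0.607 ± 1.05 in WT High and 34.1 ± 23.2 in WT Neg. In Mid, 2 of the 13 rose and 4 fell. Esrrb averaged 5.90 ± 3.41 in WT Mid and 62.9 ± 14.1 in WT Neg, and Klf4, a Krüppel-like factor, 171 ± 142 in WT Mid and 23.5 ± 9.65 in WT Neg. In ΔHx Mid over ΔHx Neg, 0 of the 13 rose and 5 fell, against 34.3% of all tested genes changed. Klf4 there averaged 57.8 ± 40.8 in ΔHx Mid and 26.5 ± 15.1 in ΔHx Neg. Of 15 germ line chromatin factors, 2 rose and 10 fell in High: the DNA methyltransferase Dnmt3b (4270 ± 628 in WT High, 15021 ± 1116 in WT Neg) and its partner Dnmt3l (9.46 ± 6.46 in WT High, 74.7 ± 17.9 in WT Neg) fell, and the dioxygenase Tet3 (1490 ± 155 in WT High, 411 ± 71.2 in WT Neg) rose. In Mid, 1 of the 15 rose and 6 fell.

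Of 12 relatives of the members, 1 rose and 7 fell in High, and 1 rose and 4 fell in Mid. The AP-2 relative of Tfap2c, Tfap2a, averaged 0.902 ± 0.910 in WT High and 38.6 ± 4.47 in WT Neg, and the receptor kinase relative of Kit, Pdgfra, 98.9 ± 44.2 in WT High and 2301 ± 202 in WT Neg (SD, n = 3 each). Ifitm2, a relative of Ifitm1 and Ifitm3, averaged 732 ± 177 in WT Mid and 1418 ± 186 in WT Neg. Of 16 genes of KIT signalling, 4 rose and 0 fell in High, against 44.4% of all tested genes changed, and 2 rose and 0 fell in Mid, against 32.9%. In ΔHx, 4 of the 16 rose and 0 fell in High over Neg, and 3 rose and 2 fell in Mid over Neg. The adaptor Gab1 averaged 778 ± 109 in WT High, 1141 ± 3.76 in WT Mid and 408 ± 21.3 in WT Neg, and the transcription factor Mitf 24.5 ± 8.85 in WT High, 41.6 ± 16.3 in WT Mid and 7.63 ± 6.74 in WT Neg (SD, n = 3 each). The kinase Fyn averaged 230 ± 89.7 in WT High and 95.3 ± 11.5 in WT Neg.

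Genes of most similar level across the 18 libraries were found by the Pearson correlation of log2 values, as a description, since libraries of a gate share their cells. For Tfap2c these were Eif2s1 and Ankrd27 (r = 0.97 each) and Gemin5 (r = 0.96); for Ifitm3 Cdca7 (r = 0.97), Pus7 and Eif5a (r = 0.96 each); and for Kitl Gsn (r = 0.98), Lima1 and Mtus1 (r = 0.97 each). Prdm1 was nearest to St6galnac2 (r = 0.82), Gas6 and Xlr4a (r = 0.81 each), Ifitm1 to Boc (r = 0.89), Mdrl (r = 0.81) and Fbxw11 (r = 0.76), and Kit to Igsf1 (r = 0.91), Arhgef28 (r = 0.87) and Socs3 (r = 0.84). Dppa3 was nearest to Gpr21 (r = 0.73), Uxt and Pp2d1 (r = 0.70 each). Between members, Tfap2c and Ifitm3 had r = 0.88, Tfap2c and Kitl r = -0.82, Prdm1 and Kitl r = 0.71 and Ifitm3 and Kitl r = -0.70, over 18 libraries.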

How the data were processed

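The 18 libraries were made with SMART-Seq2, which keeps no strand, from RNA equal to that of 1000 of 2500 to 5000 sorted cells, and read for 75 bases from 1 end, per the labels' protocols. The deposited values are signal: the authors' counts per gene after division by a size factor for each library. STAR 2.5.2a, HTSeq 0.6.1, DESeq, DESeq2 and mm10 stand in the submitters' processing notes; the annotation counted is not named there. Of 24503 lines, 5 were counters that stayed out of all tests and 24498 were genes. All 441054 values were whole reads within 1e-06 reads. The counters held 7.17% to 12.1% of all reads without a feature, 0.495% to 0.756% ambiguous and 37.7% to 41.3% with several positions. Rn45s (ribosomal RNA) took 23.7% to 44.0% of gene reads. No replicate was a copy of another (chi-square over degrees of freedom 4.93 to 97.7 within groups). The labels do not say whether equal replicate numbers share a litter or day.

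The 14711 genes that reached 10 in 3 or more libraries were fitted with limma 3.58.1 in R 4.3.3 on log2(value + 1), with 6 group means and a variance trend over all 18 libraries; tests were two-sided, and the Benjamini-Hochberg adjustment was made per comparison, with a threshold of 0.05. Fold changes are on the log2(value + 1) scale and understate those of low genes. Prdm14 and Nanos3 were tested by exact permutation of libraries within genotype, or within gate for ΔHx against WT. The recovered reads were tested with edgeR 4.0.16 and DESeq2 1.42.0. On simulated counts only the limma fit was tried, and only for WT High against WT Neg. The edgeR, DESeq2 and permutation tests were not. Other alternatives were the pseudocount, the filter, quantile normalisation, equal totals without Rn45s, robust variances, the compared groups alone, a replicate block, and each library left out in turn; leaving out libraries for Prdm14 and Nanos3 was added after seeing the data.

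The members and the gene lists were chosen with earlier results of these data known. The text names the 9 members and, from each list, up to 3 genes of largest change among those called in WT High or WT Mid against WT Neg, and up to 3 genes of highest correlation with each tested member. Positions and exon lengths are those of GENCODE vM21.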

Additional observations from a re-analysis of the deposited data

Results flagged for a closer look

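Kit was set apart because its Mid over Neg difference ran in opposite directions in the genotypes. All 3 ΔHx Mid libraries (479, 360 and 506) were below all 3 ΔHx Neg libraries (602, 516 and 773), and all 3 WT Mid libraries (1552, 630 and 701) were above all 3 WT Neg libraries (591, 607 and 569). Mid and Neg libraries did not overlap for 50.6% of all tested genes in ΔHx and 44.6% in WT. The share of genes with opposite directions in the genotypes was not counted. The difference of the genotype effects was -1.07 on the log2 scale (SE 0.34) and was tested by limma, with an adjusted p of 0.691 over 14711 genes and an unadjusted p of 0.00522. Without WT Mid replicate 1, the library with the highest parietal endoderm markers, it was -0.66 (adjusted p = 0.940).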

How the results depend on the processing

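Tfap2c, Ifitm3 in WT and in ΔHx High, and Kitl against Neg kept their direction and call under every alternative run. Of the 7 members, 5 were called for ΔHx Mid over ΔHx Neg in the compared groups alone, and 5 for WT Mid over WT Neg with edgeR and with DESeq2, against 3 in each main result. Without leaving out a library, alternatives called 4710 to 5681 of all genes for ΔHx Mid over ΔHx Neg, against 5053 in the main fit. For WT Mid over WT Neg they called 4152 to 5515, against 4834. Whether 5 of 7 differs from the share of all genes was not tested. DESeq2 also called 1 in WT High over WT Mid and 1, Kit, in ΔHx Mid over WT Mid, against 0 in each main result. The same alternatives called 2409 to 4105 of all genes in the first comparison and 3 to 179 in the second, against 3593 and 59. Leaving out 1 library gave 1 to 3 calls in ΔHx High over ΔHx Mid, 0 to 1 in WT High over WT Mid and 0 to 1 in ΔHx Mid over WT Mid. Over all genes these calls numbered 2919 to 3412, 2763 to 3388 and 13 to 132. The Prdm1 change of ΔHx High over ΔHx Mid, -0.37, was -0.664 to 0.0303 with 1 library left out and turned positive only without ΔHx High replicate 1. The Nanos3 difference of High minus Neg, -0.13, was 0.126 with equal totals without Rn45s and -1.06 to 1.43 with 1 library left out; that of ΔHx minus WT was -0.714 to 0.946. The cause was not tested. Prdm1 in WT Mid over WT Neg passed in 10 alternatives. Of 91 changes of the tested members, 37 were within 1 SE; their 758 alternatives held 98 sign changes and 0 calls.

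Equal replicate numbers were not taken as pairs, since not every pair's deviations correlated above 0.1 (0.0156 to 0.291 between gates, -0.171 to 0.0820 between genotypes); in all 18 gate pairs the own number was the highest, a hint from the data and not the design. With a replicate block within genotype, 5 members were called for WT Mid over WT Neg and 1 for WT High over WT Mid. The ranges of calls over all genes given above for these comparisons include this setting. Kit in ΔHx High over ΔHx Neg (adjusted p = 0.0295 by limma with the block) and Prdm1 in ΔHx Mid over ΔHx Neg (adjusted p = 0.0352) also passed. The median log2 change of all genes in WT High over WT Neg was 0.13 with equal totals without Rn45s, against 0.02 with the deposited size factors, and the share of calls that were higher for WT High over WT Mid was 60.9%, against 49.4%. Depth limits Prdm14, Dppa3 and Nanos3, with 64, 129 and 42 reads.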
